A study of Mus musculus with 43 samples.

Results

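This comparison sets lungs of mice that received a control antibody against lungs of mice that received none, after 15 weeks of house dust mite (HDM), an inhaled airway allergen. The libraries were chosen by their labels alone: 4 carried the isotype label and 7 the 15-week HDM label with no antibody, 11 of the 43 libraries in the series. All 11 came from lung of mice with the genotype Il33hu/hu, a humanised Il33 gene, on a background of 75% C57BL/6NTac and 25% 129S6SvEvTac. For comparison, values are also given from 7 saline libraries, which carry no time label, and from 15 libraries after 15 weeks of HDM with an anti-IL-33 antibody. A further 10 libraries after 4 weeks of HDM entered the fit only. The saline, anti-IL-33 and 4-week mice had the same genotype and background. The class, dose, route and timing of the isotype antibody, the age and sex of the mice, and whether each library came from its own mouse, are not stated in the labels used here. The p-values therefore measure the spread between libraries.

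An isotype control is an antibody of the same class as the test antibody but without its target. It accounts for what any injected IgG does through Fc receptors on myeloid and natural killer (NK) cells, through complement and through the neonatal Fc receptor, which recycles IgG. A control group of this kind is read against a group without antibody to see whether the antibody protein or the injections alone move the readout. In the HDM lung the readouts that matter are type 2 cytokines such as IL-13 and IL-5, eosinophil chemokines, alternatively activated macrophages, mucus genes and matrix genes, which act downstream of epithelial alarmins such as IL-33.

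Total counts ran from 8354316 to 10243469 in the 4 isotype libraries and from 4909177 to 11507108 in the 7 without antibody. The numbers in the sample labels fall in 2 ranges, whose meaning the labels do not state. Range 1 held 3 isotype and 5 no-antibody libraries, and range 2 held isotype replicate 4 and no-antibody replicates 6 and 7. Lung markers were present in all 11 libraries, with Sftpc, the surfactant protein C gene, between 10674 and 27349 CPM (counts scaled to library depth with TMM factors) and Scgb1a1, the club cell secretoglobin gene, between 2512 and 7826 CPM. No-antibody replicate 1 stood apart. Its median correlation with its own group was 0.912, against 0.958 to 0.973 in the other 6, and 538 genes were at least 2-fold above and 644 at least 2-fold below all 10 other libraries. One feature without a gene symbol took 13.3% of its counts and 1.45% to 4.44% in the other 10 libraries. Isotype replicate 1 carried the highest summed level of skeletal muscle genes, 179 CPM, and isotype replicate 2 held 22 genes at least 2-fold above all 10 others. Values without these libraries stand beside several of the results below.

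Across 15598 genes tested, no gene was called different between the isotype and no-antibody groups at an adjusted p under 0.05, so percent called was 0 in both directions. These are Benjamini-Hochberg values from edgeR's quasi-likelihood test, with the number range as a covariate and all 43 libraries sharing the estimate of the spread. The smallest adjusted p was 0.0514. At an unadjusted p under 0.05 there were 933 genes (5.98%), of which 342 (2.19%) were higher and 591 (3.79%) lower with the isotype. These shares depend on the shared spread. With only the 2 groups compared in the fit, 231 of 14583 genes had an unadjusted p under 0.05, 139 higher and 92 lower. That fit also called 0 genes, and Gzma had an edgeR adjusted p of 0.206 there. DESeq2 called 8 genes and limma-voom called 0. The DESeq2 calls included Gzma, Gzmb, Ncr1, Rida and Ccn1. They also included the red blood cell gene Hbb-bs at a log2 fold change of -22.3 and a feature without a symbol at -24.5. Those 2 values lie far outside the values of the other calls. Another feature without a symbol, called higher, was among the genes high in isotype replicate 2. Leaving out 1 library let edgeR call 11 genes without isotype replicate 1, 7 without isotype replicate 3 and 8 without isotype replicate 4. It called 4 without no-antibody replicate 6, 1 without no-antibody replicate 5, and 0 in the other 6 cases, isotype replicate 2 among them. The calls without isotype replicate 1, 3 or 4 included Zfp457, Olfr856-ps1, Zfp488 and LOC668415, each high in isotype replicate 2. Those without isotype replicate 1 also included Gzma, Gzmb, Ncr1 and Ccn1, and those without replicate 4 included Cdh16, called lower. The median log2 fold change was -0.02 and the median absolute log2 fold change 0.14. Of all genes, 6952 lay above 0 and 8646 (55.4%) below. The 95% interval lay within 2-fold in either direction for 13358 genes (85.6%) and within 1.5-fold for 9157 (58.7%), so for most genes a larger difference lies outside the interval. In the same fit anti-IL-33 against no antibody called 5588 genes (35.8%) and anti-IL-33 against isotype 1047 (6.71%). Those contrasts share libraries with this one, and the 15 anti-IL-33 libraries give narrower intervals. Without isotype replicate 1 the second count was 94, without isotype replicate 3 it was 58, and without no-antibody replicate 1 it was 2408, and without isotype replicate 4 it was 683. Without no-antibody replicate 1 the first count was 3459.

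**Figure D1:**
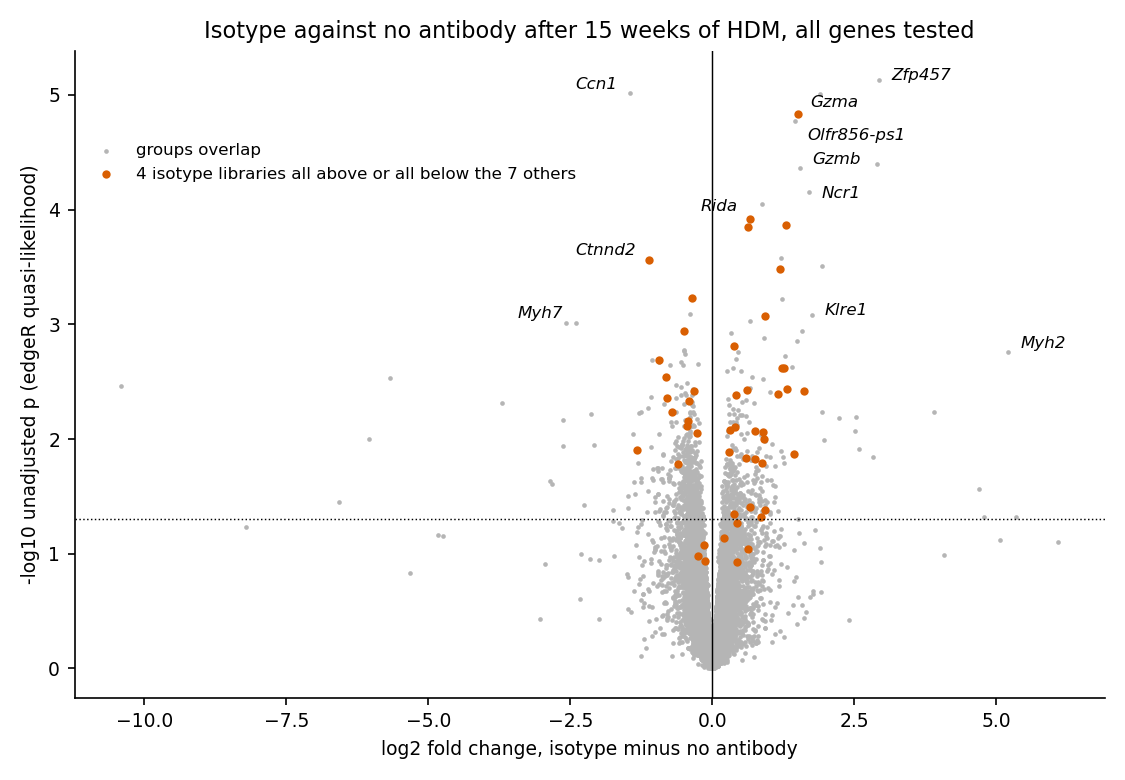
Each point is 1 of 15598 genes; the x axis is the log2 fold change of isotype over no antibody and the y axis the -log10 of the unadjusted p from edgeR, with a dotted line at p = 0.05. Orange points are the 49 genes whose 4 isotype libraries all lay above (32) or all below (17) the 7 others; Gzma is the highest of them.

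The isotype libraries all lay above every no-antibody library for 32 genes (0.205%) and all below for 17 (0.109%). Without no-antibody replicate 1 and isotype replicate 2 these counts were 159 and 136, with fewer libraries to separate. Of the gene lists described below, NK and cytotoxic genes had 1 of 17 members among the 32, Gzma, and the type I interferon list 0 of 22 and the interferon-gamma list 0 of 20. Immediate early genes had 0 of 17 and matrix genes 0 of 28 among the 17. Over all lists 3 of 703 distinct members did not overlap between the groups.

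NK and cytotoxic genes had the highest median of the 49 gene lists after skeletal muscle. Of 18 listed genes 17 could be tested, and all 17 had a log2 fold change above 0, with a median of 0.78 against -0.02 for all genes. Klra4 had too few counts. At an unadjusted p under 0.05 there were 8 of 17 members higher and 0 lower, against 5.98% of all genes, and 0 of 17 passed the adjusted threshold. The summed level of the list was 54.7, 75.8, 95.5 and 99.4 CPM in the 4 isotype libraries. It ran from 36.2 to 54.1 CPM, with a median of 42.5, in the 7 without antibody. The groups did not overlap, though isotype replicate 1 lay just above the highest of the others. That gap is smaller than the difference of Gzma, given below, between isotype replicate 1 and the no-antibody libraries. Without Gzma, the summed level of isotype replicate 1 would lie within the no-antibody range. In saline lung the sum ran from 113 to 184 CPM. In these bulk samples more cells of a type and more RNA per cell cannot be told apart.

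Gzma encodes granzyme A, a protease of cytotoxic granules, and had the clearest separation. It measured 10.5, 13.7, 20.1 and 13.9 CPM with the isotype. Without antibody it ran from 3.72 to 6.55 CPM with a median of 5.14, so all 4 isotype libraries lay above all 7 others. Its log2 fold change was 1.51 ± 0.31 (SE, 95% interval 0.89 to 2.13), with an edgeR adjusted p of 0.0531. Within number range 1 the value was 1.52 and within range 2 it was 1.53. Saline lung held 24.8 to 40.6 CPM, so the isotype libraries stayed below every saline library. The log2 fold change kept its sign in all 25 alternatives, from 1.37 to 1.67, and passed the adjusted threshold in 7 of them, including DESeq2 (adjusted p = 0.00618). Over the alternatives the adjusted p ranged from 0.00618 to 1.

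Gzmb, the gene of granzyme B, measured 1.02, 3.29, 4.98 and 5.21 CPM with the isotype and from 0.627 to 1.68 CPM, median 1.24, without antibody. Isotype replicate 1 fell within the no-antibody range and the other 3 lay above it. The log2 fold change was 1.55 (95% interval 0.86 to 2.23) with an edgeR adjusted p of 0.0962. Without isotype replicate 1 it was 1.87, with an adjusted p of 0.00233, without replicate 3 it was 1.42 (adjusted p = 0.389) and without replicate 4 it was 1.15 (adjusted p = 0.773). It passed the adjusted threshold in 3 of 25 alternatives, with adjusted p from 0.00233 to 1. Ncr1, which encodes the NK activating receptor NKp46, measured 1.41, 2.80, 3.40 and 4.32 CPM against 0.112 to 1.52 CPM, median 1.03. Its log2 fold change was 1.70 (0.92 to 2.48), edgeR adjusted p = 0.137. Klre1, an NK lectin-like receptor gene, measured 0.640, 2.19, 2.07 and 2.16 CPM with the isotype and at most 0.897 CPM without antibody. Again replicate 1 alone fell within the range of the other group.

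Further down the list, Klrb1c, the gene of the NK1.1 antigen, had a log2 fold change of 0.89 (0.32 to 1.46) and Klrk1, the NKG2D gene, 0.92 (0.23 to 1.62). Eomes, a transcription factor of NK cells and memory CD8 T cells, had 0.78 (0.08 to 1.48), and isotype replicate 4, at 6.58 CPM, was its highest value. The perforin gene Prf1 had 0.57 with an interval from -0.03 to 1.18. The smallest value was that of Klrg1, a receptor also found on group 2 innate lymphoid cells, at 0.19 (-0.44 to 0.81). The killer cell lectin-like receptors of the Klra family are near-identical copies, and reads may be divided among them unevenly. T cell genes, by contrast, had 12 of 20 members above 0 and a median of 0.13, with 0 of 20 at an unadjusted p under 0.05.

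**Figure D2:**
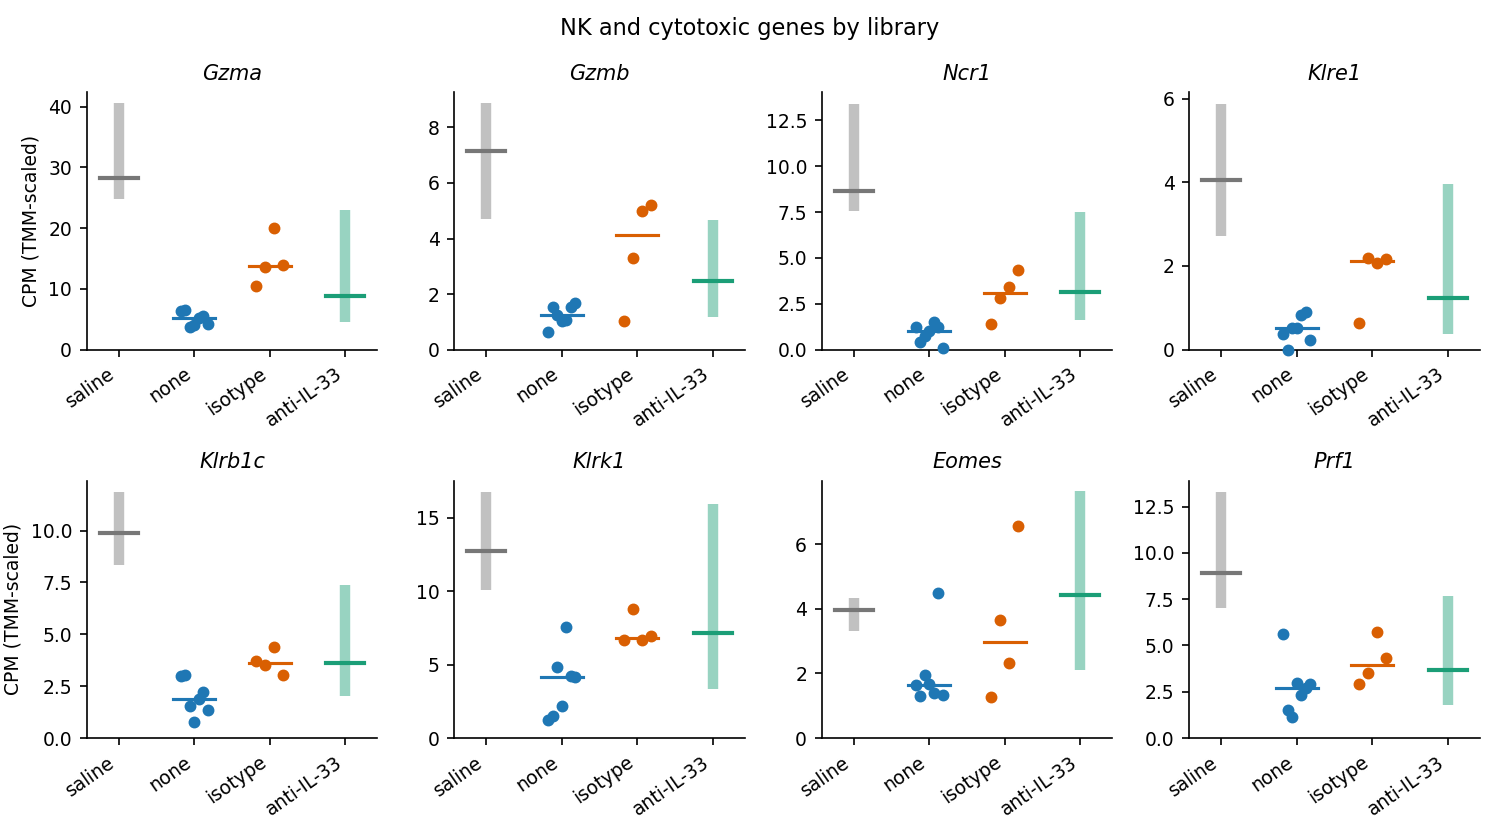
CPM (y axis) of 8 NK and cytotoxic genes in saline, no-antibody, isotype and anti-IL-33 lung. Points are libraries, and horizontal lines are medians. Vertical bars span the lowest to highest of the 7 saline and the 15 anti-IL-33 libraries. For Gzma the 4 isotype points sit at 10.5 to 20.1, above the 7 no-antibody points at 3.72 to 6.55.

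Most NK genes also lay above 0 without the libraries that stood apart. Without no-antibody replicate 1 the median was 0.77, with 17 of 17 members above 0 and 11 at an unadjusted p under 0.05. Without that library and isotype replicate 2 it was 0.85, with 17 of 18 above 0. Without isotype replicate 1 it was 0.92, with 17 of 18 above 0 and 13 at an unadjusted p under 0.05. The library that moved the median most was isotype replicate 4: without it the median was 0.48, with 16 of 18 above 0 and 7 at an unadjusted p under 0.05. Number range 1 gave a median of 0.76 and range 2, with 1 isotype library, 0.90. The same genes were higher in the anti-IL-33 group than without antibody, a contrast that shares the no-antibody libraries: 13 of 17 rose and 1, Klrg1, fell, against 15.9% and 19.9% of all genes. Gzma had a log2 fold change of 1.07 there (edgeR adjusted p = 0.0014), Gzmb 1.12 (adjusted p = 0.0023) and Ncr1 1.95 (adjusted p = 4.3e-05). Between anti-IL-33 and isotype 0 of 17 rose and 1 fell, again Klrg1, against 3.58% and 3.14% of all genes. The values there were -0.44 for Gzma, -0.43 for Gzmb and 0.25 for Ncr1.

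The promoters of Gzma, Gzmb and Ncr1, the NK genes with the 3 smallest p, are shown because these genes stood highest together. Each runs from 250 bases before to 50 bases after the start of transcription, 5' to 3' along the gene, from RefSeq on GRCm38.p6. Gzma lies at chr13:113100932-113101231 on the minus strand, Gzmb at chr14:56262285-56262584 on the minus strand and Ncr1 at chr7:4337465-4337764 on the plus strand. Capitals mark matches, on either strand, to the letters TGTGGT (a RUNX motif), TCACAC (a T-box half-site) and TGANTCA (an AP-1 motif).
Gzma: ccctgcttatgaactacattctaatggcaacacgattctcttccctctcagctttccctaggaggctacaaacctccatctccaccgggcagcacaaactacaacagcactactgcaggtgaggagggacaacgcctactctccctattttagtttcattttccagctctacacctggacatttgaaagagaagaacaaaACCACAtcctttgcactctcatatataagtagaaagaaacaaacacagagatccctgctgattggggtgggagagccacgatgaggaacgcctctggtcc
Gzmb: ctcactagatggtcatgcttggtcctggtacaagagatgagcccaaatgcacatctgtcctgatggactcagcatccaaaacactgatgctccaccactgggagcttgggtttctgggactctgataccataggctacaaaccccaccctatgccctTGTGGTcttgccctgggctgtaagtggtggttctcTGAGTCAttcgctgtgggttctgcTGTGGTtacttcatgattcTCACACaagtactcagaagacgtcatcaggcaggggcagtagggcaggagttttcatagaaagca
Ncr1: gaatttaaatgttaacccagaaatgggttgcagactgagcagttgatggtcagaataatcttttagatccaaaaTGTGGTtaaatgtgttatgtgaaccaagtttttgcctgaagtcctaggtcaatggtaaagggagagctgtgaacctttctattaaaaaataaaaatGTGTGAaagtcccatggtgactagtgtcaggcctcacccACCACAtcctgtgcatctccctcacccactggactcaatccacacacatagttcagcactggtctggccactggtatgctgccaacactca
TGTGGT or its complement was found in all 3, at base -50 in Gzma, at -93 and -34 in Gzmb and at -176 and -41 in Ncr1, counting back from the start of transcription to the first base of the match. Of 32851 mouse promoters of this length in the table, 16.8% hold it. TCACAC was found in Gzmb at -15 and in Ncr1 at -80, and in 14.5% of all promoters. TGANTCA was found in Gzmb alone, at -58, and in 7.81% of all promoters. GGAATG (a TEAD motif) and the CArG box (the motif of SRF), searched in the same way, had no match in these promoters. No match overlapped another. The matches describe letters in these windows, not binding.

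Interferon-induced genes were mostly above 0 too. In the type I interferon response list, antiviral genes switched on by interferon-alpha and -beta, 21 of 22 members lay above 0. Over all genes 6952 lay above 0 and 8646 below. The list's median was 0.28, and 4 members were higher at an unadjusted p under 0.05, against 2.19% of all genes. Rsad2, the gene of the antiviral enzyme viperin, measured 19.8, 11.7, 19.2 and 11.7 CPM with the isotype and 5.01 to 12.5 CPM, median 7.64, without antibody. Its log2 fold change was 0.88 (95% interval 0.14 to 1.62), and 2 of the 4 isotype libraries lay above all 7 others. Oas2, an RNA-sensing synthetase gene, had 0.62 (0.04 to 1.2) and Mx1, a GTPase gene, 0.50 (0.02 to 0.99). Without no-antibody replicate 1 the list's median was 0.21, with 20 of 22 above 0 and 1 at an unadjusted p under 0.05. Without isotype replicate 4 it was 0.18, with 19 of 22 above 0 and 1 at an unadjusted p under 0.05. That count was also 1 without isotype replicate 3, without no-antibody replicate 3 and in number range 1 (median 0.16, 18 of 22 above 0). It was 6 without no-antibody replicate 5.

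Interferon-gamma is made by NK and T cells and induces GTPases of the Irg and Gbp families and the chemokines Cxcl9 and Cxcl10. In the list of Ifng and its targets 16 of 20 members were above 0, with a median of 0.44, and 2 had an unadjusted p under 0.05 and a higher value, against 2.19% of all genes. That count was 0 without isotype replicate 3 or 4, 7 without isotype replicate 1 and 8 without isotype replicate 2. Irgm2, an immunity-related GTPase gene, measured 33, 43.2, 73.1 and 78.9 CPM with the isotype and 23.3 to 50.3 CPM, median 33.6, without antibody. Isotype replicates 3 and 4 lay above all 7 others and replicates 1 and 2 within their range, and the log2 fold change was 0.70 (0.14 to 1.26). Gbp4, a guanylate-binding protein gene, was likewise highest in replicates 3 and 4, at 29.7, 42.8, 87.3 and 86.5 CPM. Ifng itself was near the limit of detection, at 0, 0.122, 0.608 and 0.491 CPM with the isotype and at most 0.655 CPM without antibody, and its log2 fold change was 0.17 (-1.28 to 1.62). Without isotype replicate 4 the list's median was 0.23, with 13 of 20 above 0. In number range 1 it was 0.35, with 14 of 20 above 0. In range 2, where replicate 4 is the only isotype library, it was 0.51, with 20 of 20 above 0. For anti-IL-33 against no antibody, which shares the no-antibody libraries, 13 of 20 rose and 1 fell, against 15.9% and 19.9% of all genes.

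Ccn1 had the smallest p among genes lower with the isotype. It encodes a matricellular protein (CYR61) that serum, stretch and growth factors induce through SRF and YAP. It measured 63.0, 38.2, 45.1 and 65.0 CPM with the isotype. Without antibody it ran from 59.9 to 243 CPM with a median of 113, so only 1 no-antibody library, replicate 5, fell within the isotype range. The log2 fold change was -1.45 ± 0.29 (SE, 95% interval -2.03 to -0.87), edgeR adjusted p = 0.0514. It was -1.24 without no-antibody replicate 1, -1.53 in number range 1 and -1.23 in range 2. It lay between -1.57 and -1.14 in all 25 alternatives and passed the adjusted threshold in 9, with adjusted p from 0.000745 to 1. Saline lung held 88.5 to 136 CPM, so the isotype libraries lay below every saline library, and the anti-IL-33 libraries held 20.5 to 82.0 CPM.

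The Ccn1 promoter is shown as that of the gene with the smallest p in this direction, at chr3:145649936-145650235 on the minus strand, with the same build, source and window as the promoters above. Capitals mark the only match to GGAATG (a TEAD motif) on either strand.
Ccn1: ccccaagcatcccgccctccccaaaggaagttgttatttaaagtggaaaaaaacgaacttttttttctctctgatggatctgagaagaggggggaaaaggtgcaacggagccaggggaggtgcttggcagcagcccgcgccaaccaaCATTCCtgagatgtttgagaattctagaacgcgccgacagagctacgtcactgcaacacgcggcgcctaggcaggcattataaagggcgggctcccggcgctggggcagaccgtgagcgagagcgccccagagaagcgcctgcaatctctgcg
That match lies at base -103, on the strand opposite to the gene, and 14.7% of all promoters of this length hold one. The CArG box, the motif of SRF, had no match in this window and is held by 1.63% of promoters.

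Immediate early genes are those that cells switch on within minutes of a stimulus or of tissue handling. Of the list 16 of 17 members lay below 0, against 55.4% of all genes, with a median of -0.35. At an unadjusted p under 0.05 there were 4 of 17 lower and 0 higher, against 3.79% and 2.19% of all genes. The count of lower members was 1 without isotype replicate 2 or 4 (medians -0.28 and -0.34), and 2 without no-antibody replicate 1 or 4. Over all genes, 591 were lower in the main fit. Without isotype replicates 2 and 4 in turn, 509 and 595 were lower, and without no-antibody replicates 1 and 4 in turn, 262 and 380. Nr4a1, the gene of an orphan nuclear receptor, measured 20.7, 20.2, 20.7 and 29.9 CPM with the isotype and 26.6 to 61.5 CPM, median 34.5, without antibody. Of its 4 isotype libraries 3 lay below all 7 others, and the log2 fold change was -0.74 (95% interval -1.19 to -0.28). Dusp1, a MAP kinase phosphatase gene, had -0.59 (-1.09 to -0.08) and Fos, the AP-1 subunit gene, -0.73 (-1.48 to 0.03). Srf, which encodes the transcription factor behind many of these genes, measured 48.9 to 51.5 CPM in the isotype libraries and 49.6 to 121 CPM, median 59.1, in the others, a log2 fold change of -0.49 (-0.79 to -0.20). Without no-antibody replicate 1 the median of the list was -0.24, with 16 of 17 below 0, and without that library and isotype replicate 2 it was -0.20, with 1 lower at an unadjusted p under 0.05. Upper-quartile scaling gave -0.32 with 15 of 17 below 0 and 2 lower, and number range 1 alone -0.39 with 1 lower.

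Matrix and remodelling genes had 25 of 28 members below 0, against 55.4% of all genes, and a median of -0.33. At an unadjusted p under 0.05, 6 were lower, against 3.79% of all genes. That count was 1 without isotype replicate 1 (median -0.33, 21 of 28 below 0) or isotype replicate 4 (-0.30, 22 of 28). It was 2 without no-antibody replicate 1 or 4. With only the 2 groups compared in the fit it was also 2, with 25 of 28 below 0. Over all genes, 591 were lower in the main fit. Without isotype replicates 1 and 4 in turn, 398 and 595 were lower, and without no-antibody replicates 1 and 4 in turn, 262 and 380. Col1a1, the gene of the alpha 1 chain of type I collagen, measured 287, 416, 379 and 303 CPM with the isotype. Without antibody replicate 1 held 1662 CPM and replicate 4 held 965 CPM, the other 5 held 238 to 475 CPM, and the median was 417. The isotype values lay inside that lower range. The log2 fold change was -0.86 (95% interval -1.53 to -0.19), -0.39 without replicate 1 and -0.72 without replicate 4. In number range 2, which holds neither, it was 0.0047. Fn1, the fibronectin gene, measured 796, 1111, 1069 and 655 CPM with the isotype, against 2870 CPM in replicate 4, 1723 CPM in replicate 1 and 859 to 1185 CPM in the other 5. Its log2 fold change was -0.58, and -0.28 without replicate 4. Without replicate 1 the list's median was -0.14, with 23 of 28 below 0. In range 2 it was -0.11, with 17 of 28 below 0. With anti-IL-33 against no antibody, which shares those libraries, 24 of 28 members fell and 1 rose, against 19.9% and 15.9% of all genes.

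Proliferation genes had 19 of 22 members below 0, against 55.4% of all genes, and a median of -0.21. At an unadjusted p under 0.05, 2 were lower and 1 higher, against 3.79% and 2.19% of all genes. The median was -0.12 without no-antibody replicate 6, -0.13 without isotype replicate 1, with 0 lower, and -0.11 with limma-voom. The higher member was Tyms, the thymidylate synthase gene, whose value came from isotype replicate 2, at 74.1 CPM against 24.4 to 27.1 CPM in the other 3 isotype libraries and 11.2 to 31.1 CPM without antibody. Mcm2, a subunit gene of the replicative helicase, had a log2 fold change of -0.45 (-0.80 to -0.10) and Aurkb, a mitotic kinase gene, -0.48 (-0.93 to -0.04).

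Genes that handle injected IgG did not separate the groups. The list of Fc receptors and IgG handling had 8 of 16 members above 0, a median of 0.00485 and 0 of 16 at an unadjusted p under 0.05. Fcgr1, the gene of the high-affinity IgG receptor of myeloid cells, measured 8.70, 6.46, 9.12 and 8.64 CPM with the isotype and 3.88 to 7.6 CPM, median 7.02, without antibody. Of the isotype libraries 3 of 4 lay above all 7 others, and the log2 fold change was 0.30 (95% interval -0.18 to 0.79), and 0.21 without no-antibody replicate 1. The activating receptor genes Fcgr3 and Fcgr4 had 0.01 (-0.49 to 0.51) and 0.13 (-0.48 to 0.73). Fcgr2b, the inhibitory receptor gene, had 0.03 (-0.40 to 0.46), and Fcer1g, the gene of the shared signalling chain, 0.07 (-0.52 to 0.66). Fcgrt, the heavy chain gene of the neonatal Fc receptor, had -0.18 (-0.55 to 0.19). No-antibody replicate 1 was its highest value, 146 CPM against 50.5 to 58.1 CPM in the other 6, and without it the log2 fold change was 0.12. Trim21, the gene of a cytosolic antibody receptor, had 0.22 (-0.08 to 0.53), or 0.11 without no-antibody replicate 1, and Fcer1a, the IgE receptor alpha chain gene, -0.58 (-1.68 to 0.52). The intervals of these genes all include 0, and those of the named IgG receptor genes and Fcgrt lie within 2-fold.

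Complement genes had 9 of 21 members above 0 and a median of -0.03. C1qa, a chain of the complement component that binds IgG complexes, measured 145, 114, 113 and 115 CPM with the isotype and 91.9 to 246 CPM, median 104, without antibody, a log2 fold change of -0.06 (-0.51 to 0.40). Cd59a, an inhibitor of the membrane attack complex, had 0.36 (0.08 to 0.63) and was the only complement gene at an unadjusted p under 0.05. Cfb, the alternative pathway gene, had -0.53 (-1.10 to 0.04) and C1ra, a protease of the classical pathway, -0.20 (-0.42 to 0.03). These were -0.28 and -0.08 without no-antibody replicate 1, and C1qa had 0.18. Plasma cell genes had 10 of 15 below 0 and a median of -0.10. Jchain, which joins IgA and IgM polymers, measured 7378, 3476, 4620 and 2379 CPM with the isotype and 2308 to 7064 CPM, median 4125, without antibody, a log2 fold change of 0.0056 (-1.12 to 1.13). Sdc1 (CD138) had -0.43 (-0.82 to -0.03), with 1031 CPM in no-antibody replicate 1 and 264 to 529 CPM in the other 6. Without that library it was -0.09. The secretory pathway gene Edem2 had -0.44 (-0.90 to 0.01), or -0.15 without that library, and Prdm1, the Blimp-1 gene, 0.26 (-0.13 to 0.66).

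The disease readouts of the model overlapped between the isotype and no-antibody groups. Il13, the type 2 cytokine that drives mucus and airway reactivity, measured 2.18, 1.95, 3.16 and 0.982 CPM with the isotype and 0.818 to 3.09 CPM, median 1.63, without antibody, a log2 fold change of 0.17 (95% interval -0.96 to 1.30). Il5, the eosinophil growth factor gene, had 0.60 (-0.53 to 1.73). Ccl11, the eotaxin gene, measured 94.1, 51.0, 88.1 and 23.7 CPM against 24.1 to 84.0 CPM, median 57.5, a log2 fold change of 0.23 (-0.62 to 1.07). Isotype replicate 4, the library of number range 2, was the lowest of the 4 for Il13, Il5 and Ccl11, and in range 2 alone the 3 values were -0.44, -1.01 and -1.07. Arg1, a marker of alternatively activated macrophages, measured 162, 260, 535 and 117 CPM with the isotype and 88.2 to 526 CPM, median 132, without antibody, a log2 fold change of 0.46 (-0.88 to 1.80).

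Il33 measured 619, 537, 832 and 454 CPM with the isotype and 117 to 868 CPM, median 579, without antibody. Its log2 fold change was 0.06 (-0.77 to 0.90), and -0.11 without no-antibody replicate 1, the library at 117 CPM. Which sequence of the humanised gene its reads were aligned to is not stated in the labels. Its receptor gene Il1rl1 had -0.05 (-0.64 to 0.53). The acute phase gene Saa3 had 0.17 (-1.42 to 1.76), the neutrophil-associated Lcn2 -0.10 (-1.01 to 0.81) and Timp1, a metalloproteinase inhibitor gene, -0.33 (-1.47 to 0.80). The mucin genes Muc5ac and Muc5b had -0.37 (-1.52 to 0.77) and -0.93 (-1.83 to -0.03), and the goblet cell gene Clca1 0.28 (-1.56 to 2.12). Muc5b was at 818 CPM in no-antibody replicate 1 and 77.7 to 216 CPM in the other 6, and without that library its log2 fold change was -0.27. Il6 measured 3.46, 1.71, 2.67 and 2.55 CPM with the isotype and 1.25 to 11.6 CPM, median 4.13, without antibody, a log2 fold change of -0.94 (-1.90 to 0.01). The intervals of Saa3 and Clca1 pass 2-fold on both sides, those of Il33 and Il1rl1 lie within 2-fold, and that of Muc5b lies below 0.

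The same genes set both other contrasts beside this one, with libraries shared among the 3. Against no antibody, anti-IL-33 gave log2 fold changes of -2.39 for Il13, -1.93 for Ccl11, -2.47 for Arg1 and -2.62 for Timp1 (edgeR adjusted p = 0.00044, 4.9e-05, 0.00051 and 5.9e-05). Against isotype the values were -2.56, -2.15, -2.93 and -2.29 (adjusted p = 0.007, 0.00063, 0.0035 and 0.0069). For Lcn2 the value against no antibody was -0.99 (adjusted p = 0.017) and against isotype -0.89 (adjusted p = 0.12). For Col1a1 the values were -1.44 (adjusted p = 6.1e-05) and -0.58 (adjusted p = 0.17), and for Il6 -2.58 (adjusted p = 6.9e-06) and -1.64 (adjusted p = 0.025).

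**Figure D3:**
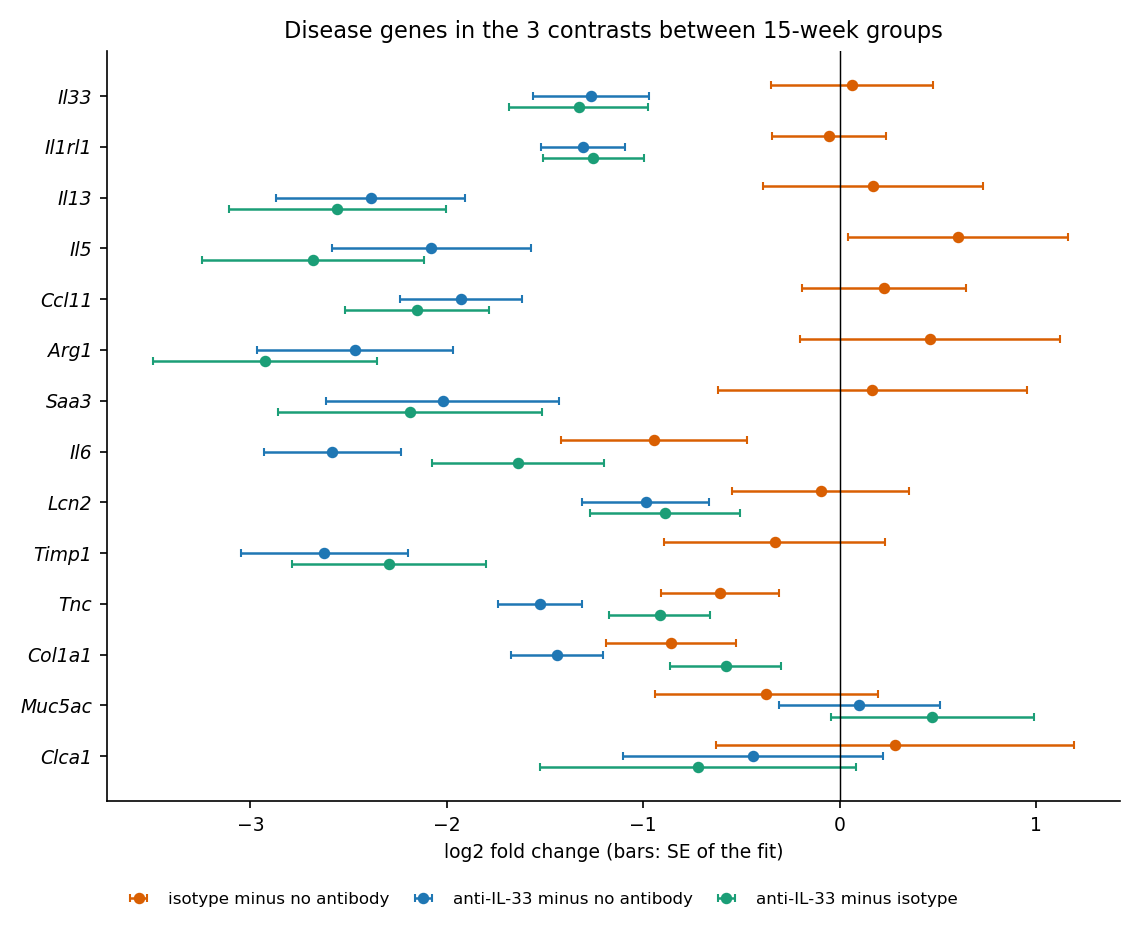
Log2 fold changes (x axis) with the SE of the fit for 14 disease genes in 3 contrasts: isotype minus no antibody (orange), anti-IL-33 minus no antibody (blue) and anti-IL-33 minus isotype (green). Orange points run from -0.94 (Il6) to 0.60 (Il5); for Il13 the points are 0.17, -2.39 and -2.56.

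Of the other genes with the smallest p, those given here ran from -1.11 (Ctnnd2) to 1.31 (Prrt1) in log2 fold change. Over all genes, 1.27% had an absolute log2 fold change of 1 or more. Rida, which encodes a deaminase of reactive imines, measured 17.5, 14, 19.4 and 17 CPM with the isotype and 5.89 to 13.7 CPM, median 11.1, without antibody, a log2 fold change of 0.68 (95% interval 0.35 to 1). DESeq2 called it (adjusted p = 0.0214) and edgeR did not (adjusted p = 0.185). Prrt1, at 1.02 to 1.96 CPM with the isotype, had 1.31 (0.68 to 1.93). All 4 isotype libraries lay above all 7 others for both genes. Ctnnd2, the delta-catenin gene, measured 4.22, 4.02, 4.01 and 1.57 CPM against 6.01 to 9.15 CPM, a log2 fold change of -1.11 (-1.68 to -0.55). Nt5dc3 had -0.35 (-0.54 to -0.16) and Apold1, an endothelial early response gene, -0.93 (-1.50 to -0.36), and for these 3 all 4 isotype libraries lay below all 7 others. Itpr2, an IP3 receptor calcium channel gene, had -0.39 (-0.61 to -0.17) and Zdhhc9, a palmitoyltransferase gene, -0.49 (-0.79 to -0.20).

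A separate set of genes was high in isotype replicate 2 alone. Zfp457, a zinc finger gene on chromosome 13 with the smallest p of all, measured 21.8 CPM there and 0.384, 0.729 and 0.982 CPM in the other 3 isotype libraries. Without antibody it ran from 0.251 to 1.55 CPM, so 1 library made the difference of 2.95 on the log2 scale. Without isotype replicate 2 the log2 fold change was -0.11 (edgeR adjusted p = 0.987). Olfr856-ps1, an olfactory receptor pseudogene, measured 114 CPM in that library and 10.9 to 17.7 CPM in the other 10, and its log2 fold change of 1.46 became 0.01 without it. Zfp488, a zinc finger gene, measured 153 CPM against 28.9 to 45.4 CPM, and its value of 0.87 became 0.18. Ap1s3, an adaptor protein subunit gene, measured 118 CPM against 12.9 to 28.6 CPM, and Veph1 25.5 CPM against 2.13 to 5.76 CPM. In all, 22 genes were at least 2-fold above the other 10 libraries there, and 20 of the 22 were also above all 42 other libraries of the series. The predicted gene LOC668415, at 39.6 CPM against 1.29 to 7.27 CPM, was one of the genes that edgeR called when isotype replicate 1, 3 or 4 was left out.

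**Figure D4:**
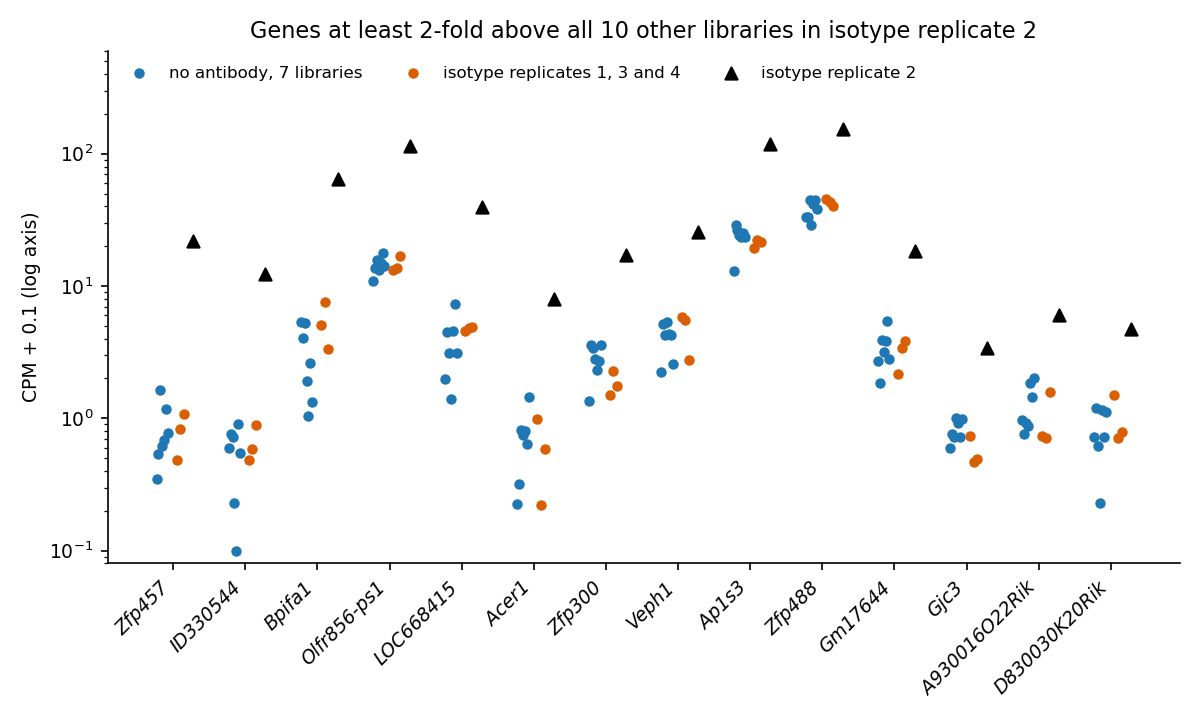
CPM plus 0.1 on a log axis (y axis) for 14 genes that were at least 2-fold above all 10 other libraries in isotype replicate 2 (black triangles). Blue points are the 7 no-antibody libraries and orange points isotype replicates 1, 3 and 4. Zfp457 is at 21.8 CPM in replicate 2 and at most 1.55 CPM in the other 10.

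Markers of muscle and blood varied by library. Skeletal muscle genes had 11 of 13 tested members above 0 and the highest median of any list, 1.27, which rested on isotype replicate 1. Their summed level was 179 CPM there, 12.6 to 21.8 CPM in the other 3 isotype libraries, 70.0 CPM in no-antibody replicate 1 and 10.02 to 16.2 CPM in the other 6. Without isotype replicate 1 the median was -0.31, with 4 of 14 above 0. Myh2, a fast myosin heavy chain gene, measured 11.3 CPM in isotype replicate 1 and at most 0.234 CPM in the other 10. The sum of red blood cell genes was 3264 CPM in isotype replicate 1 and 4131 CPM in no-antibody replicate 1, against 513 to 1300 CPM in the other 9. Cardiac muscle genes had 11 of 13 above 0 and a median of 0.23, with sums of 129 to 247 CPM with the isotype and 104 to 289 CPM without antibody. Myh7, the slow myosin gene of heart and slow muscle, went the other way, at 8.96, 5.12, 4.5 and 1.57 CPM against 4.79 to 48.5 CPM, a log2 fold change of -2.40 (95% interval -3.76 to -1.04). Isotype replicate 1, the library with these muscle and blood genes, was the lowest of the 4 for the summed NK genes; their part in that result was not tested.

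Of 49 gene lists described with these libraries, 37 had a median log2 fold change between -0.2 and 0.2, and none held a called member. Over the 703 distinct list members tested, 48 (6.83%) had an unadjusted p under 0.05, 24 higher and 24 lower, beside 5.98% of all genes. Alternatively activated macrophage genes had 9 of 18 above 0 and a median of 0.07, the IL-33 and alarmin list 6 of 14 and -0.03, and type 2 cytokines and chemokines 8 of 18 and -0.07. Alveolar macrophage genes had -0.03 and monocyte and interstitial macrophage genes 0.03. Mast cell and basophil genes had the lowest median, -0.53, with 3 of 13 above 0 and 0 of 13 at an unadjusted p under 0.05. That median was -0.06 without no-antibody replicate 4, -0.22 in number range 1 and -1.15 in range 2. Goblet cell and mucus genes had a median of -0.31, and 0.12 without no-antibody replicate 1. Ribosomal protein genes (0.03) and mitochondrial respiratory chain genes (8 of 19 above 0) did not stand apart from the median of all genes.

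**Figure D5:**
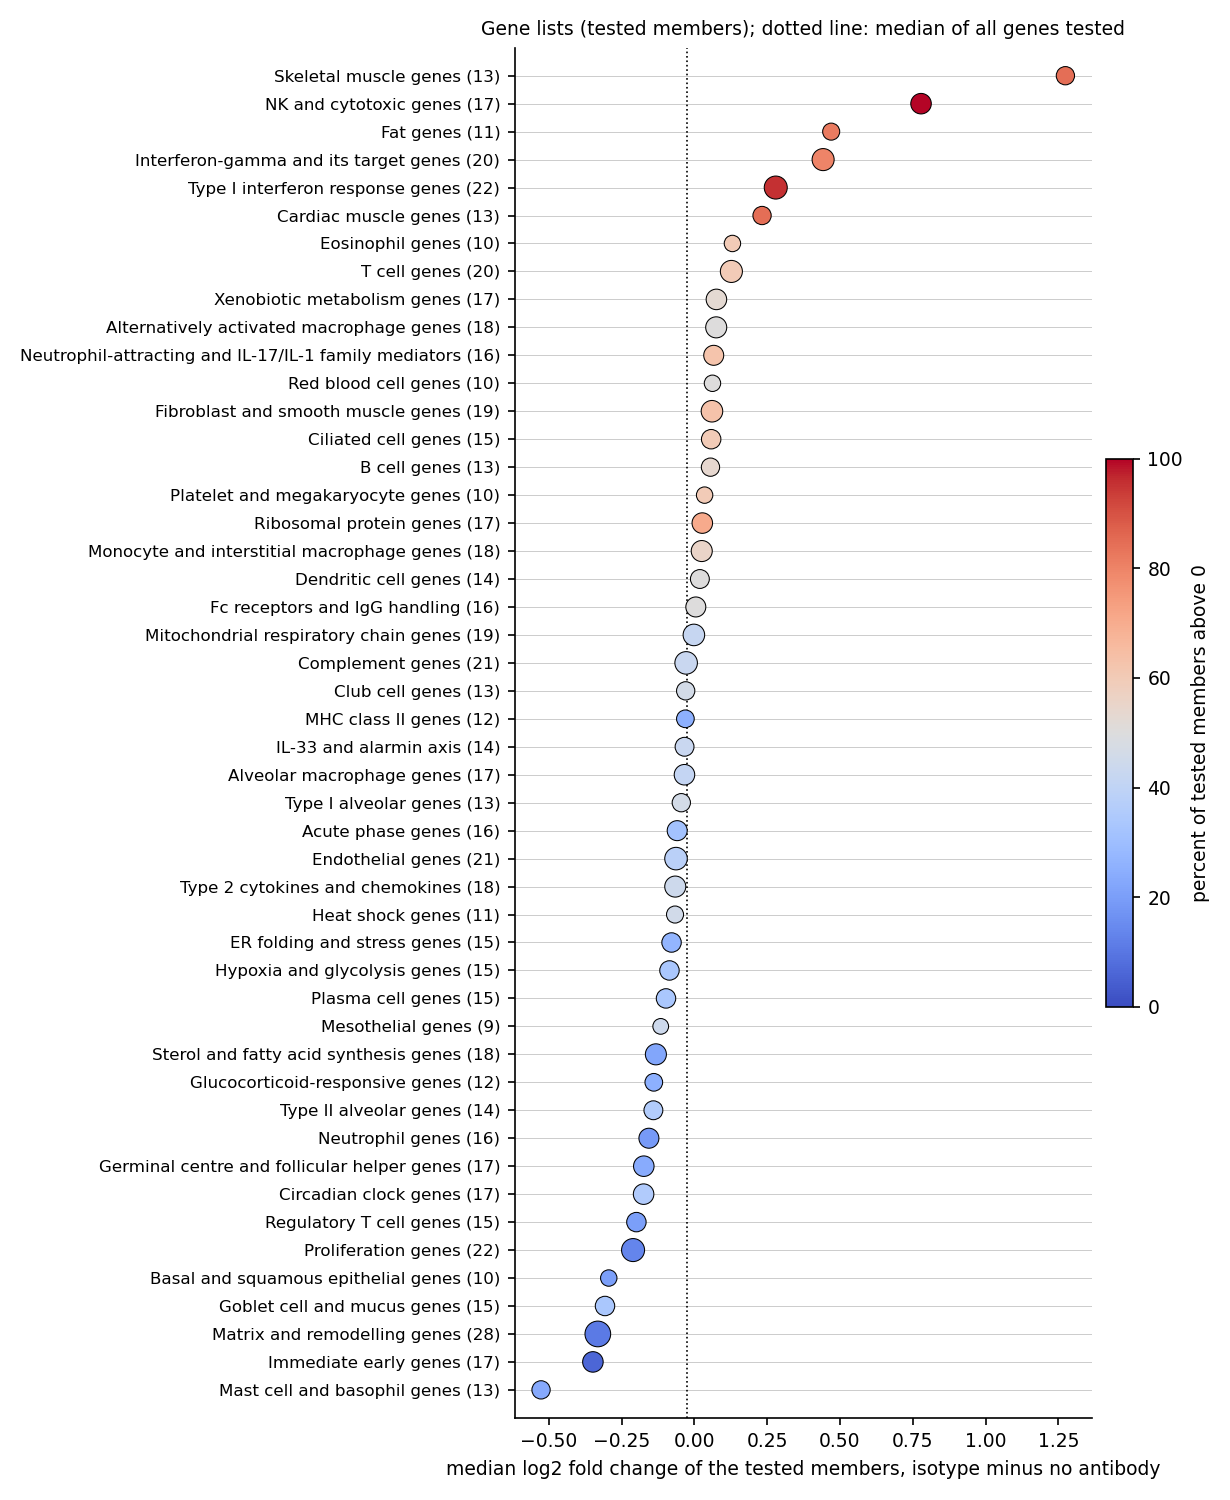
Median log2 fold change of isotype over no antibody (x axis) for the tested members of 48 gene lists; the number tested is in brackets and sets the size of the circle. Colour is the percent of members above 0, and the dotted line the median of all genes, -0.02. Skeletal muscle (1.27) and NK and cytotoxic genes (0.78) lie highest, and mast cell and basophil genes (-0.53) lowest.

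The isotype difference was also tested between number ranges. With 1 isotype library in range 2 this test has little power. No gene was called for the difference between ranges by edgeR (percent called 0), 477 (3.06%) had an unadjusted p under 0.05, and DESeq2 called 2. Taken alone, range 1 called 0 genes and range 2 called 1. For Gzma the difference between ranges was 0.0016 on the log2 scale, for Gzmb 0.17, for Ncr1 1.26 and for Ccn1 0.30, each with an edgeR adjusted p of 1.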

How the data were processed

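Strand-specific mRNA libraries were made from lung RNA, and the authors deposited raw counts per gene for 43 libraries; per the submitters' processing notes the genome build is GRCm38. The aligner, counter and annotation were not given in those notes. Of 24475 gene IDs 24375 were matched to symbols; the other 100 held 2.62% of counts. Counts were tested with edgeR 4.0.16 in R 4.3.3 (TMM scaling, filterByExpr by group, robust quasi-likelihood, group plus number range, all 43 libraries), with Benjamini-Hochberg adjustment over 15598 genes and a threshold of 0.05. Fold changes carry 95% intervals from that fit. Alternatives used DESeq2 1.42.0, limma 3.58.1, sva 3.50.0, other scalings and filters, each number range alone and each library left out. The code was tested on simulated data. Figures used Python 3.11.15 and matplotlib 3.10.9. Libraries were grouped by their labels; replicates are numbered in label or accession order and do not pair groups.

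Named genes were the 10 smallest p in each direction, predicted genes left out, the 3 smallest p of each core list and a set of Fc receptor and disease genes; other named genes were picked after their values were seen. Of the genes this rule names, 2 are not reported here. The comparison and the lists were chosen with earlier results of these data known. Promoters came from RefSeq (GRCm38.p6).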

Additional observations from a re-analysis of the deposited data

Results flagged for a closer look

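In all, 122 sets of values were tested. These were the reported genes of the naming rule, and library measures, in each group. Genes named outside that rule were not tested. Of the sets, 33 held a library whose gap to the nearest other exceeded Dixon's 95% critical value. Chance gives about 1 in 20 for independent, normally spread sets. These genes share libraries, and some were named by a p that 1 library made. No-antibody replicate 1 gave 15 of the 33. It was highest for Tubb3 (3.63 CPM, next 1.31), Zdhhc9 (104), Sdc1 (1031), Edem2 (349), Cfb (332), C1ra (289), Muc5b (818), Spdef (4.39), Fcgrt (146) and C1qa (246 CPM). It was lowest for Trim21 (7.89), Fcgr1 (3.88), Il5ra (2.63) and Il33 (117 CPM, next 555). A feature without a symbol took 13.3% of its counts.

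Isotype replicate 2 was highest for Zfp457 (21.8), Olfr856-ps1 (114), Zfp488 (153) and Veph1 (25.5 CPM). Isotype replicate 4, the single isotype library of number range 2, was highest for Prrt1 (1.96), Cfb (192) and Lcn2 (3211 CPM, next 1806), lowest for Ctnnd2 (1.57 CPM), and highest in depth (10243469 counts). Isotype replicate 1 was highest for C1qa (145 CPM).

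No-antibody replicate 4 was highest for Fn1 (2870), Il1rl1 (62.1), Arg1 (526) and Timp1 (240 CPM), which are a matrix gene and 3 genes of the disease readouts. No-antibody replicate 2 was highest for Fcgr4 (45.8 CPM) and lowest in depth (4909177 counts). Replicate 6 was highest for Prrt1 (0.987 CPM), and replicate 7 for Fcer1a (1.23 CPM).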

How the results depend on the processing

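For isotype against no antibody, where edgeR called 0 genes, upper-quartile scaling called 5 (4 higher, 1 lower), no filter on low counts 7 (6 and 1), a filter at 2 CPM 6 (5 and 1), no number range term 4 (3 and 1), DESeq2 8 (5 and 3), 1 surrogate variable 11 (10 and 1) and number range 2 alone 1 (0 and 1). Leaving out each replicate gave 0 to 11 genes, 0 to 10 higher and 0 to 1 lower. The smallest adjusted p of the main edgeR fit was 0.0514, so small changes cross the threshold. Without isotype replicate 3 or 4 the calls included Zfp457, Olfr856-ps1, Zfp488 and LOC668415, which were high in isotype replicate 2. Leaving out isotype replicate 2 gave 0. The calls with 1 surrogate variable included the muscle genes Myh1, Myot, Mybpc1 and Tnnc2 beside Gzma, Gzmb, Ncr1 and Ccn1. Those of DESeq2 included the extreme values given above. Which cause moved each count was not tested. Upper-quartile scaling moved the median of all genes from -0.02 to 0.01, and the split at an unadjusted p under 0.05 from 342 higher and 591 lower to 433 and 404. With only the 2 groups compared in the fit that split was 139 higher and 92 lower of 14583 genes, and 0 were called. Anti-IL-33 against isotype, 1047 genes, gave 687 with no filter, 4153 with only those groups, 1704 with DESeq2 and 58 to 2408 with a replicate left out. Anti-IL-33 against no antibody, 5588 genes, gave 3459 to 6251. Without no-antibody replicate 1 and isotype replicate 2, an alternative chosen after seeing the data, these were 2463 and 3368, and isotype against no antibody stayed at 0. DESeq2 and 1 surrogate variable each called 2 genes for the difference between ranges, which could not be fitted without isotype replicate 4.

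Of 1512 results for 61 named genes under alternatives, 1402 kept their direction and side of the threshold, 44 passed the threshold newly and 66 changed sign, in 32 genes, none with an adjusted p under 0.05. A result without an adjusted p, such as those of Zfp457 and Olfr856-ps1 with DESeq2, was counted as not passing. Without both libraries the values were -0.24 for Zfp457, -0.037 for Olfr856-ps1, 0.082 for Fcgrt, 0.22 for C1qa, -0.0074 for Jchain, -0.072 for Il33, 0.13 for Lcn2 and -0.056 for Clca1. In range 1 alone they were -0.0033 for Fcgr2b, -0.032 for Fcgr3, -0.040 for Fcgr4, -0.086 for Fcer1g and 0.043 for Il1rl1. In range 2 alone, with 1 isotype library, they were -0.052 for Zfp488, -0.32 for Veph1, -0.028 for Prdm1, 0.45 for Cfb, 0.13 for C1ra, 0.29 for Il4ra, 0.084 for Il10, -0.25 for Socs2, 0.17 for Pdcd1lg2, -0.30 for Cxcl15, 0.57 for Muc5b, 0.0047 for Col1a1, 0.096 for Fcgrt, 0.18 for C1qa, -1.15 for Jchain, -0.46 for Il33, -0.44 for Il13, -1.01 for Il5, -1.07 for Ccl11, 0.73 for Lcn2, 0.14 for Muc5ac and -0.73 for Clca1. limma-voom gave 0.010 for C1qa and -0.031 for Jchain, no range term -0.011 for Jchain and only the groups compared -0.022 for Jchain. With a replicate left out, signs changed for genes whose values then ran from -0.11 to 3.39 for Zfp457, from -0.059 to 0.1 for Fcgr2b, from -0.065 to 0.070 for Fcgr3, from -0.074 to 0.25 for Fcgr4, from -0.022 to 0.19 for Fcer1g, from -0.24 to 0.12 for Fcgrt, from -0.13 to 0.18 for C1qa, from -0.35 to 0.25 for Jchain, from -0.15 to 0.25 for Il33, from -0.28 to 0.18 for Il1rl1, from -0.12 to 0.46 for Il13, from -0.017 to 0.54 for Ccl11, from -0.14 to 0.97 for Arg1, from -0.0070 to 0.37 for Saa3, from -0.31 to 0.054 for Lcn2 and from -0.68 to 0.10 for Timp1. No paired analysis was possible because the replicate numbers name libraries and do not tie an isotype to a no-antibody library. With 4 isotype libraries, the median half-width of the 95% interval was 0.37 on the log2 scale.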
